A study of Mus musculus with 23 samples.

Results

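The immediate early genes were followed as 10 members, Fos, Fosb, Jun, Junb, Egr1, Egr2, Egr3, Nr4a1, Ier2 and Dusp1, taken by symbol from the 22488 genes of a count table. The rule uses no measured value, but the members were chosen with earlier results of these data known. All 10 were found, and their level in a library is given as CPM (the gene's count over the library's total, times 1000000). The study tested how far the input of EASY-RNAseq, a low-input protocol in which the Tn5 transposase cuts cDNA made from an oligo-dT primer and adds the adapters, can be reduced. It held 12 libraries of murine CD3+ T cells, 3 each from 100, 500, 1000 and 10000 cells. It held 11 libraries of diluted RNA, 2 from 0.1 ng and 3 each from 0.5, 1 and 5 ng. The labels give both materials as C57 mice of 6 to 18 weeks, with no genotype change, treatment or stimulation, and name the first spleen T cell. The series design places the diluted RNA in mouse spleen, whereas its sample labels name the macrophage line RAW 264.7. No label says whether libraries of a group came from separate animals, cultures or dilutions, so p-values may measure technical spread alone.

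Library totals ran from 1737067 to 7908638 counts. At 5 ng the diluted RNA carried B cell markers summing to 39040 to 40437 CPM over 13 genes and neutrophil markers summing to 5121 to 5375 CPM over 12 genes, none of them at 0. Its 17 macrophage and monocyte markers summed to 3917 to 3994 CPM, 11 erythroid markers to 4652 to 4688 CPM and 14 T cell markers to 1913 to 2050 CPM. Markers of several blood cell types, B cells foremost, go against a pure macrophage line, so the material is called diluted RNA here. In the 10000-cell libraries the 14 T cell markers summed to 8347 to 8526 CPM, the B cell markers to 1334 to 1518 CPM and the neutrophil markers to 52.9 to 64.4 CPM. Replicate 3 at 100 cells stood apart, with B cell markers at 15866 CPM, neutrophil markers at 2106 CPM and T cell markers at 4991 CPM. The libraries of 500 cells held plasma cell markers at 2735 to 2961 CPM, against 87.8 to 94.4 CPM at 10000 cells. Results that rest on replicate 3 at 100 cells are given with and without it.

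Immediate early genes are those whose transcription starts soon after a stimulus from proteins already in the cell, without new protein synthesis. In T cells and B cells they are known as a readout of antigen receptor signalling, which reaches their promoters through MAP kinases, serum response factor with its ternary complex partners, CREB and calcium-NFAT. Their mRNAs are short-lived. Fos and Fosb pair with Jun and Junb to form AP-1, a transcription factor that binds DNA as a dimer. Egr1, Egr2 and Egr3 are zinc finger transcription factors, and in T cells Egr2 and Egr3 are known as restraints on activation. Nr4a1 is an orphan nuclear receptor widely used as a reporter of recent antigen receptor signalling, Ier2 is a small nuclear protein, and Dusp1 is a phosphatase that switches MAP kinases off.

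Promoter windows of 7 members were searched, namely Fos, Fosb, Jun, Junb, Egr2, Nr4a1 and Dusp1. Windows of Egr1, Egr3 and Ier2 were not searched, so the motif counts below say nothing about them. A window ran from 250 bases before to 50 after an annotated start in RefSeq on GRCm38.p6. The submitters list another build, mm8, so the coordinates belong to RefSeq and not to the counts. On that assembly Jun lies on chromosome 4, Fosb on 7, Junb and Ier2 on 8, Egr2 on 10, Fos on 12, Egr3 on 14, Nr4a1 on 15, Dusp1 on 17 and Egr1 on 18. Both strands were searched for motifs through which CREB and serum response factor are known to act. The first 4 windows below are shown because Fos and Junb were higher in T cells than in the diluted RNA at every input, while Nr4a1 and Egr2 varied with T cell input. Capitals mark the CRE core TGACG (or CGTCA on the other strand), the CRE-like TGCGTCA, the TATA box TATAAA and the CArG box of serum response factor. The fifth window, of Dusp1, holds the full CRE TGACGTCA.
Fos, chr12:85473640-85473939, plus strand: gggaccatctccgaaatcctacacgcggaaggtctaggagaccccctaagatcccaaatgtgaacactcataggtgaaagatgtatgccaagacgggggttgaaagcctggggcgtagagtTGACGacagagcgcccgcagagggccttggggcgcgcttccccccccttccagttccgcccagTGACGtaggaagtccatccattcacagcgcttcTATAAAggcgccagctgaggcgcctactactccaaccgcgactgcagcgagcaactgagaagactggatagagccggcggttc
Junb, chr8:84978699-84978998, minus strand: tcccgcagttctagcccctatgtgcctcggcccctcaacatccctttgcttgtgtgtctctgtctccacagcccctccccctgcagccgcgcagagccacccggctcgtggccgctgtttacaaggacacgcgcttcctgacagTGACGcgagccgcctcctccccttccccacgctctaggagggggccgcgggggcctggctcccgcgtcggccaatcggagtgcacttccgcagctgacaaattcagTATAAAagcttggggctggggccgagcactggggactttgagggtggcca
Nr4a1, chr15:101266596-101266895, plus strand: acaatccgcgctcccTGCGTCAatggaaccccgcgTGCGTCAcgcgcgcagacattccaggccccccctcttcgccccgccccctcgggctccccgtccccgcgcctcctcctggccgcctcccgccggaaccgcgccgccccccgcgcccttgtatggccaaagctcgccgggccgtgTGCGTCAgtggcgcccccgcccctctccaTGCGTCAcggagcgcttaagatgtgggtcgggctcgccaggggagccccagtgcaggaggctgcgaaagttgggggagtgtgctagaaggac
Egr2, chr10:67537619-67537918, plus strand: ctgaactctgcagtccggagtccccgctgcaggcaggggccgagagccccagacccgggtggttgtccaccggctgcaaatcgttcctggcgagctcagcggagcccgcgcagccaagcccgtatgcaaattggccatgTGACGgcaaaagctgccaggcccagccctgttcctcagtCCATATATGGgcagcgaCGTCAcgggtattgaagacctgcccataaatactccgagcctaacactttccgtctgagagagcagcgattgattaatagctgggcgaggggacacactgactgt
Dusp1, chr17:26508423-26508722, minus strand: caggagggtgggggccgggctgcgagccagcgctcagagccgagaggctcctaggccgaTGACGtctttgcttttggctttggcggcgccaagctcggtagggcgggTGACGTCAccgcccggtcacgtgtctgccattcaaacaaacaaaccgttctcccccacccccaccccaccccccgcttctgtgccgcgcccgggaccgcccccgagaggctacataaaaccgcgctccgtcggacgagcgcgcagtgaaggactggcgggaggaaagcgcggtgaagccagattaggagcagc

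The core TGACG was found in windows of 6 of the 7 members, Jun being the one without it, and in windows of 23% of 27025 genes. The full CRE was found in Dusp1 alone among the 7, and in 2.03% of genes. The CRE-like TGCGTCA, which holds the core on its other strand, occurred in Fosb and, in 4 copies, in Nr4a1, and in 2.42% of genes. Egr2 has 5 annotated windows, and the CArG box was found in Egr2 alone among the 7 members and in 1.81% of genes. TATAAA was found in Fos and Junb and in 15.7% of genes, and in Junb it lies at the annotated start itself. The AP-1 motif TGANTCA was in none of the 7 windows and in 8.97% of genes. These matches describe letters in a window and say nothing about binding.

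Summed over the 10 members, the 10000-cell libraries held 1695.6 ± 13.7 CPM (SD, n = 3) and the 5 ng libraries 729.7 ± 16.1 CPM (SD, n = 3). The sum was 1725.5 ± 104.1 CPM at 1000 cells and 1759.7 ± 41.8 CPM at 500 cells. At 100 cells it was 1448.8 ± 238.9 CPM, with the lowest value, 1188 CPM, in replicate 3. In the diluted RNA the sum was 767.0 ± 53.2 CPM at 1 ng, 732.9 ± 55.1 CPM at 0.5 ng and 781.9 ± 138.5 CPM (SD, n = 2) at 0.1 ng. Every T cell library therefore lay above every library of diluted RNA in this sum. In these bulk libraries, fewer cells that express a gene and less RNA per cell cannot be told apart.

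**Figure D1:**
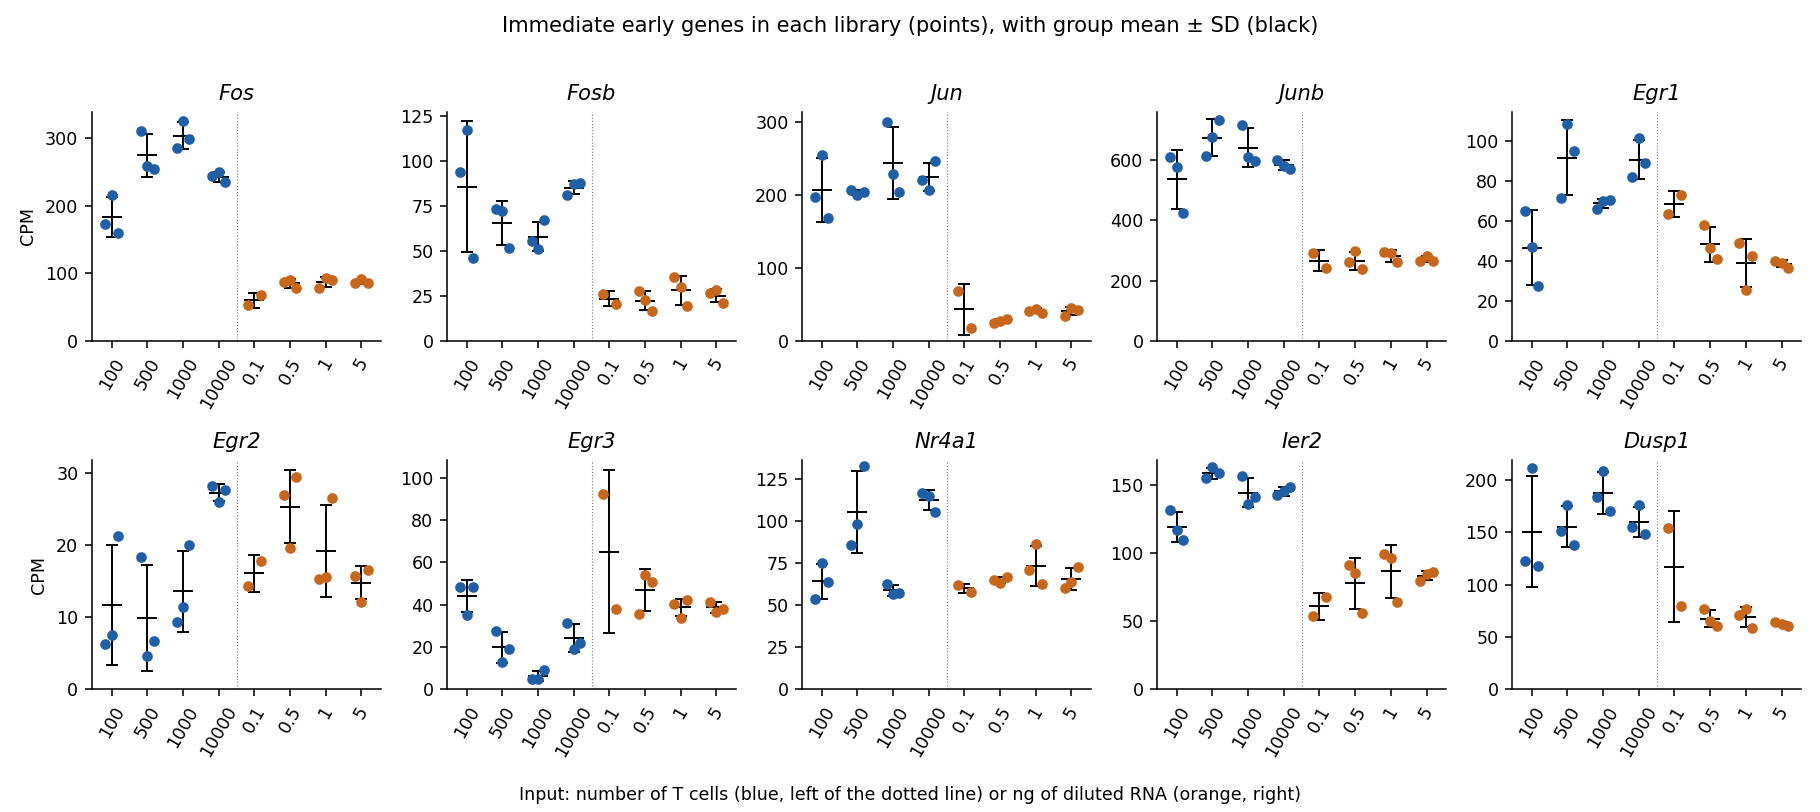
CPM of each of the 10 immediate early genes (y axis, linear from 0) in every library, grouped on the x axis by T cell number (blue, left) and ng of diluted RNA (orange, right), with group mean ± SD in black. Fos, Fosb, Jun, Junb and Ier2 lie higher in all 12 T cell libraries than in any of the 11 libraries of diluted RNA, while Egr1, Egr2, Egr3, Nr4a1 and Dusp1 overlap.

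Over all inputs, 5 of the 10 members, Fos, Fosb, Jun, Junb and Ier2, were higher in every T cell library than in any library of diluted RNA. Of 9434 genes with a mean of at least 10 CPM, 3.75% had this pattern. Fos ran from 159.8 to 325 CPM (median 252) in T cells and from 53.0 to 93.3 CPM (median 86.2) in diluted RNA. Jun ran from 168 to 299 CPM in T cells and from 18.4 to 68.3 CPM in diluted RNA. Junb, the most abundant, ran from 426 to 734 CPM and from 240.1 to 297 CPM. Fosb and Ier2 were closer, with lowest T cell values of 46.0 and 109.5 CPM above highest RNA values of 35.4 and 99.7 CPM. The remaining 5 members overlapped between the materials.

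The comparison of 10000 T cells with 5 ng RNA asked how the genes differ between the materials where replicates were closest. Each of the 10 members passed the edgeR quasi-likelihood test at an adjusted p under 0.05, 9 higher in T cells and 1, Egr3, lower. Among 14425 genes tested, 56% passed, 28.7% higher and 27.3% lower. The median log2 fold change was 1.06 over the members and 0.03 over all genes tested. The 2 groups of 3 libraries overlapped for none of the members, a state that held for 61.4% of all genes tested.

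Jun, whose product forms AP-1 with Fos, had the largest difference among the members. Its level was 220.3, 207 and 246 CPM in the 3 libraries of 10000 cells and 34.8, 44.98 and 43.2 CPM at 5 ng. The log2 fold change was 2.34 (SE 0.0929, adjusted p = 1.502e-31), a 5.05-fold difference. Junb rose less, from 265, 282 and 267 CPM at 5 ng to 601, 579 and 569 CPM at 10000 cells, a log2 fold change of 0.99 (SE 0.0523, adjusted p = 2.639e-25).

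Fos was at 243, 249.7 and 235 CPM at 10000 cells and at 86.2, 91.2 and 86.1 CPM at 5 ng, a log2 fold change of 1.36 (SE 0.0746, adjusted p = 2.025e-24). Fosb, less abundant, was at 81.1, 87.1 and 87.6 CPM against 26.6, 28.3 and 21.1 CPM, a log2 fold change of 1.64 (SE 0.135). For both genes every T cell library was above every RNA library by more than the whole range within a group.

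Among the zinc finger factors, Egr1 and Egr3 moved in opposite directions. Egr1 was at 81.7, 101 and 88.8 CPM at 10000 cells and at 40.0, 39.1 and 36.7 CPM at 5 ng, a log2 fold change of 1.12 (SE 0.120, adjusted p = 3.63e-12). Egr3 was at 31.5, 19.02 and 21.8 CPM against 41.4, 36.6 and 38.2 CPM, a log2 fold change of -0.79 (SE 0.175, adjusted p = 9.176e-05). Egr2 was at 28.2, 25.9 and 27.6 CPM against 15.6, 12.1 and 16.6 CPM, a log2 fold change of 0.77 (SE 0.207, adjusted p = 0.00122). When all 23 libraries shared a fit, Egr2 and Egr3 no longer passed (adjusted p = 0.233 and 0.0899), with log2 fold changes of 0.79 and -0.77.

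Dusp1, the MAP kinase phosphatase, was at 155, 176 and 149 CPM at 10000 cells and at 64.3, 62.7 and 60.4 CPM at 5 ng, a log2 fold change of 1.25 (SE 0.0914, adjusted p = 1.229e-18). Nr4a1 was at 117, 115 and 106 CPM against 60.4, 64.1 and 72.7 CPM, a log2 fold change of 0.66 (SE 0.101, adjusted p = 8.99e-08). Ier2 was at 142, 146 and 149 CPM against 80.0, 85.0 and 86.0 CPM, a log2 fold change of 0.69 (SE 0.0867, adjusted p = 5.552e-10). Nr4a1 and Ier2 had the smallest differences of the members higher in T cells, and still the libraries of the 2 groups did not overlap.

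The cell makeup moved with these differences. All 14 T cell markers were higher in the 10000-cell libraries, and all 13 B cell, 12 neutrophil, 17 macrophage and monocyte and 11 erythroid markers were lower. The part of these markers in the differences of the members was not tested, and cell makeup and preparation cannot be told apart in this design. Exons of Junb and Dusp1 overlap Prdx2 and Ergic1 on the opposite strand, and whether counting used strand is not given in the sources used here. Prdx2 was at 50.0 ± 6.3 CPM at 10000 cells and 121 ± 4.0 CPM at 5 ng, and Ergic1 at 26.2 ± 7.9 and 43.5 ± 2.1 CPM (SD, n = 3 each), so both ran opposite to the members they overlap. Jun overlaps Junos, which has no row in the table. Across the genes tested, the log2 fold change rose weakly with exon length (Spearman's rho 0.213 across genes, which are not independent replicates), and the members' median exon length was 3354.5 bases against 4696.5 bases for genes tested.

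Fos, Fosb, Jun, Junb, Egr1, Ier2 and Dusp1 were higher in T cells at 1000 and at 500 cells too, and Egr3 was lower. In 1000 T cells against 1 ng RNA, where 40% of genes passed (20.1% higher and 20% lower), 7 members were higher, Egr3 was lower, and Egr2 and Nr4a1 did not pass. Their log2 fold changes were -0.50 (95% interval, as ± 1.96 SE, -1.21 to 0.22) and -0.33 (-0.67 to 0.01). In 500 T cells against 0.5 ng RNA, where 37.1% of genes passed (19% higher and 18.1% lower), 8 members were higher and Egr2 and Egr3 were lower. Jun had the largest rise at each of these inputs, with log2 fold changes of 2.53 (SE 0.144) and 2.87 (SE 0.165). Fos came second with 1.78 (SE 0.108) and 1.67 (SE 0.132), and Junb had 1.16 (SE 0.0842) and 1.33 (SE 0.0961).

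Egr3 was lower in T cells at each of these 3 steps, with log2 fold changes of -2.61 (SE 0.326) at 1000 cells and -1.26 (SE 0.318) at 500 cells. Egr2, higher at 10000 cells, was lower at 500 cells by the fit, with a log2 fold change of -1.37 (SE 0.463, adjusted p = 0.0231). That call was lost without replicate 2 or 3 of 500 cells or replicate 1 or 3 of 0.5 ng (adjusted p from 0.0541 to 0.101). Nr4a1 was higher at 500 cells by 0.68 on the log2 scale (SE 0.190, adjusted p = 0.00676), and lost its call without replicate 3 of 500 cells (0.46, adjusted p = 0.0737).

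**Figure D2:**
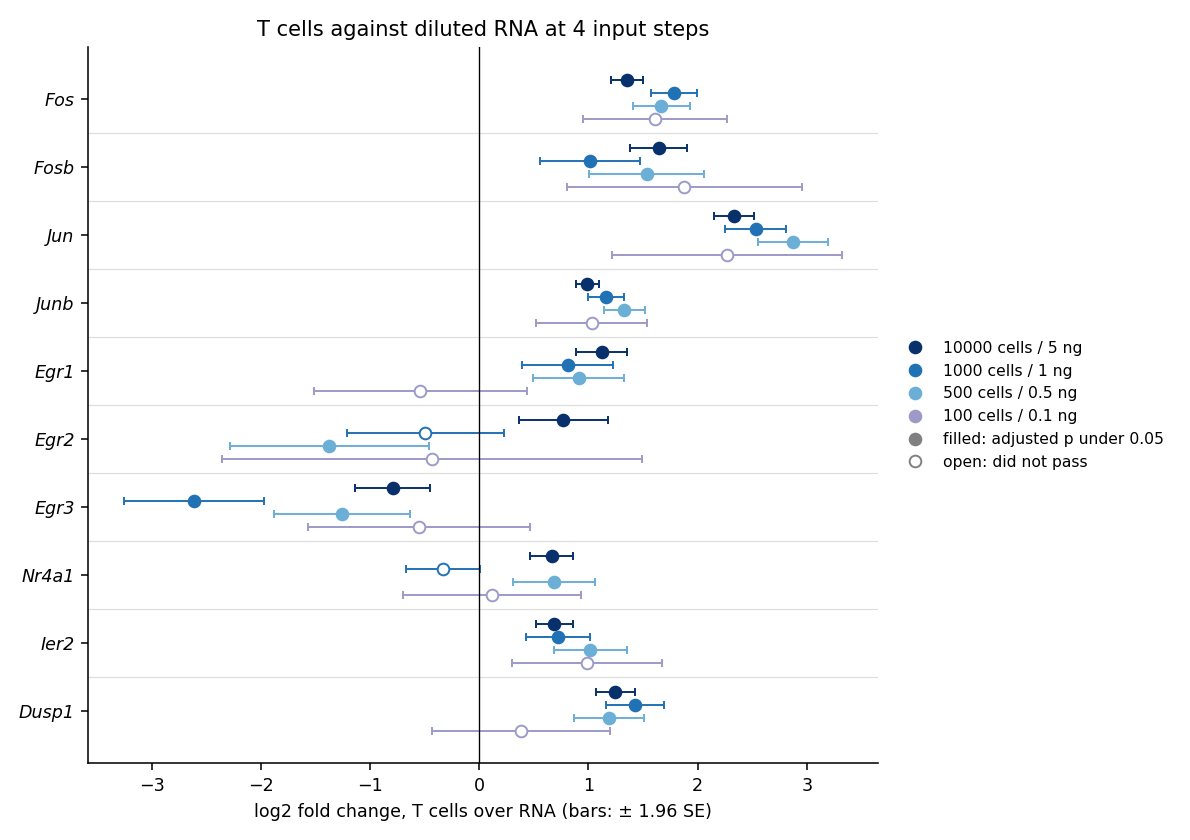
log2 fold change of T cells over diluted RNA (x axis, bars ± 1.96 SE) for each member (y axis) at 4 input steps, with filled points where the adjusted p was under 0.05. Jun lies farthest to the right at every step (2.34, 2.53, 2.87 and 2.27 from 10000 to 100 cells), Egr3 lies left of 0, and no point at 100 cells is filled.

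In 100 T cells against 0.1 ng RNA, 0 members passed by edgeR, where 0.0535% of 13073 genes passed, and 5 members had an unadjusted p under 0.05, as did 15.7% of genes. DESeq2 called 4 members, Fos, Fosb, Jun and Junb, and 5.08% of genes. The log2 fold changes were 2.27 for Jun (SE 0.537, adjusted p = 0.195), 1.88 for Fosb (SE 0.548, adjusted p = 0.229), 1.61 for Fos (SE 0.336, adjusted p = 0.149) and 1.03 for Junb (SE 0.260, adjusted p = 0.203). Libraries of the 2 groups did not overlap for 5 members, all higher in T cells, as for 21.1% of genes tested. Without replicate 3 at 100 cells, 545 of 12229 genes (4.46%) and 3 members passed, Fos at 1.71 (adjusted p = 0.033), Fosb at 2.19 (adjusted p = 0.0496) and Junb at 1.18 (adjusted p = 0.0169). Egr1, higher in T cells at 10000 cells, had a log2 fold change of -0.54 here (SE 0.498), and the change between these steps passed the test of the difference, as did 7.84% of genes.

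The 2 libraries of 0.1 ng differed from each other in several members. Jun was at 68.3 and 18.4 CPM, Egr3 at 92.2 and 38.0 CPM, and Dusp1 at 154 and 79.4 CPM. Junb (291 and 242 CPM), Egr1 (63.7 and 73.1 CPM) and Nr4a1 (62.2 and 58.1 CPM) were closer. Against 5 ng RNA, 0 members passed by edgeR at 0.1 ng, where 11.2% of genes passed, although 4 had an unadjusted p under 0.05, as did 32.9% of genes, and DESeq2 called 2, Egr1 and Dusp1, and 20% of genes. The log2 fold change of Jun was 0.04 (95% interval -0.97 to 1.04), and it turned to -1.23 (adjusted p = 8.998e-05) without replicate 1 of 0.1 ng. Without replicate 2 instead it was 0.66 (adjusted p = 0.00235). Each of these fits rests on a single library of 0.1 ng, assumed to vary like the 5 ng libraries.

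At 0.5 ng against 5 ng, where 5.09% of genes passed, 0 members passed by edgeR, 2 had an unadjusted p under 0.05, as did 18.7% of genes, and DESeq2 called 2, Jun lower and Egr2 higher, and 10.4% of genes. Jun was at 24.7, 28.1 and 30.0 CPM at 0.5 ng, below each of the 5 ng libraries, a log2 fold change of -0.58 (95% interval -0.93 to -0.22, adjusted p = 0.0721). Egr2 was at 26.9, 19.6 and 29.4 CPM, above each of them, a log2 fold change of 0.77 (0.30 to 1.24, adjusted p = 0.0709). At 1 ng against 5 ng, where 0.0238% of genes passed, 0 members passed by edgeR, 0 had an unadjusted p under 0.05 and DESeq2 called 0. The log2 fold changes at 1 ng ran from -0.01 for Fos (95% interval -0.21 to 0.19) to 0.36 for Egr2 (-0.11 to 0.82). The 3 comparisons share the 5 ng libraries.

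Among T cell inputs, 1000 cells were compared with 10000 cells, and 4 members passed where 3.27% of genes passed (1.23% higher and 2.04% lower at 1000 cells). Nr4a1, the antigen receptor reporter, was at 62.6, 57.1 and 57.1 CPM at 1000 cells and at 117, 115 and 106 CPM at 10000 cells, a log2 fold change of -0.92 (SE 0.143, adjusted p = 5.043e-05). The 3 values at 1000 cells lay close together and well below the 3 at 10000 cells. Egr3 was at 5.08, 4.79 and 9.19 CPM against 31.5, 19.02 and 21.8 CPM, a log2 fold change of -1.90 (SE 0.362, adjusted p = 0.00096). Behind the Egr3 values at 1000 cells stood 12, 13 and 23 counts. Both genes passed under each of 12 alternatives, with log2 fold changes from -0.97 to -0.90 for Nr4a1 and from -2.27 to -1.67 for Egr3. Beside them, T cell markers summed to 8123 to 8330 CPM at 1000 cells and 8347 to 8526 CPM at 10000 cells, and erythroid markers to 318 to 327 CPM and 120.5 to 145 CPM, and their part was not tested.

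Fos and Fosb differed less between these inputs. Fos was higher at 1000 cells, at 286, 325 and 299 CPM, by 0.34 on the log2 scale (SE 0.0840, adjusted p = 0.0161). Fosb was lower, at 55.8, 51.2 and 67.1 CPM, with a log2 fold change of -0.54 (SE 0.158, adjusted p = 0.0486). The call of Fos was lost without replicate 2 of 1000 cells or without any of the 3 replicates of 10000 cells (adjusted p from 0.0574 to 0.144). That of Fosb was lost without replicate 1 or 2 of 1000 cells or any replicate of 10000 cells (adjusted p from 0.0918 to 0.236), and both were lost in the fit of all 23 libraries (adjusted p = 1.0). Egr2 was at 9.31, 11.4 and 20.0 CPM at 1000 cells, below each library of 10000 cells. Its log2 fold change was -0.99 (SE 0.301, adjusted p = 0.0618). It passed under 4 of 12 alternatives, among them DESeq2 (adjusted p = 0.0169), which called 5 members and 7.57% of genes. Jun, Junb, Egr1, Ier2 and Dusp1 did not pass, with log2 fold changes from -0.38 for Egr1 (95% interval -0.67 to -0.09) to 0.24 for Dusp1 (0.04 to 0.45).

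In 500 cells against 10000 cells, where 3.21% of genes passed, 1 member, Egr2, passed. It was at 18.3, 4.66 and 6.75 CPM at 500 cells, or 41, 12 and 15 counts, a log2 fold change of -1.48 (SE 0.390, adjusted p = 0.0364). The call was lost without replicate 2 or 3 of 500 cells, without any replicate of 10000 cells (adjusted p from 0.0874 to 0.178) and in the fit of all 23 libraries (adjusted p = 0.285). Nr4a1, at 85.8, 98.2 and 133 CPM, had a log2 fold change of -0.10 (95% interval -0.41 to 0.20), and Egr3, at 27.7, 12.8 and 18.9 CPM, one of -0.30 (-0.93 to 0.33). So Nr4a1 and Egr3, which were lower at 1000 cells, overlapped the 10000-cell libraries at 500 cells. Junb was at 613, 676 and 734 CPM, above each library of 10000 cells, with a log2 fold change of 0.20 (SE 0.0708, adjusted p = 0.136), and DESeq2 called it (adjusted p = 0.0481). Markers of other cells moved with this comparison too. Besides the plasma cell markers, those of B cells summed to 2661 to 2843 CPM at 500 cells against 1334 to 1518 CPM at 10000 cells, and 4 of 13 passed as higher. Erythroid markers summed to 214 to 234 against 120.5 to 145 CPM, with 3 of 8 tested higher, and macrophage and monocyte markers to 215 to 239 against 327 to 340.5 CPM, with 5 of 15 tested lower. Neutrophil markers summed to 26.1 to 43.5 against 52.9 to 64.4 CPM, with 2 of 9 tested lower. Their part in the result was not tested.

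In 100 cells against 10000 cells, 0 members and 0 of 14099 genes (0%) passed by edgeR, while 5 members and 1686 genes (12%) had an unadjusted p under 0.05, and DESeq2 called 1 member, Nr4a1, and 348 genes (3.03%). Nr4a1 was at 54.1, 75.2 and 63.8 CPM at 100 cells, below each library of 10000 cells, with a log2 fold change of -0.82 (SE 0.200, adjusted p = 0.170). Egr1 was at 65.0, 47.0 and 27.7 CPM, also below each of them, with -0.98 (SE 0.311, adjusted p = 0.268). Egr3 was at 48.3, 35.2 and 48.4 CPM, above each of them, with 0.86 (SE 0.322, adjusted p = 0.333).

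Replicate 3 at 100 cells, the library with many B cell and neutrophil markers, held Egr2 at 21.3 CPM against 6.24 and 7.57 CPM in the others. It held Fosb at 46.0 CPM against 94.1 and 117 CPM, and Junb at 426 CPM against 609 and 576 CPM. Without it, the log2 fold change of Egr2 at 100 against 10000 cells went from -1.19 (SE 0.508) to -2.004 (SE 0.386, adjusted p = 0.0401), and that of Fosb from -0.01 to 0.28 (SE 0.175, adjusted p = 0.398). Egr1 was then at -0.72 (SE 0.220, adjusted p = 0.110), Nr4a1 at -0.83 (SE 0.198, adjusted p = 0.0638) and Egr3 at 0.76 (SE 0.330, adjusted p = 0.227). Without replicate 3, 357 genes (2.36%) passed in this comparison. The 3 comparisons share the 10000-cell libraries.

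**Figure D3:**
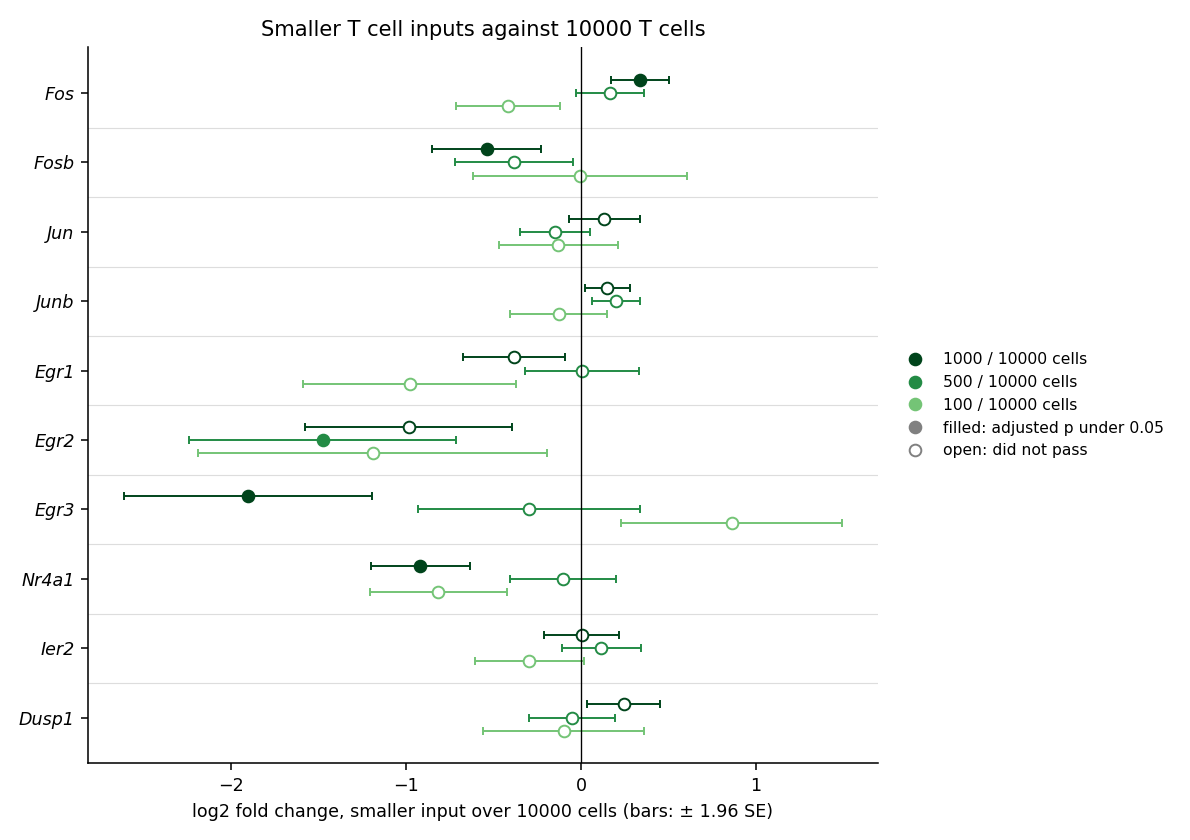
log2 fold change of 1000, 500 and 100 cells over 10000 cells (x axis, bars ± 1.96 SE) for each member (y axis), with filled points where the adjusted p was under 0.05. Egr2 lies left of 0 at each input (-0.99, -1.48 and -1.19), while Egr3 lies at -1.90, -0.30 and 0.86, and Jun and Junb lie near 0.

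Ordered by group mean, the levels show where neighbours overlap. Fos went from 1000 cells, which overlapped 500 cells, to 10000 cells and 100 cells, each apart from its neighbours, and then to the diluted RNA, where 5, 1 and 0.5 ng overlapped and 0.1 ng stood lowest. For Junb and for Jun, the 4 T cell inputs each overlapped the next in order, and the lowest T cell group was apart from the highest RNA group. Egr3 was ordered from 0.1 ng, 0.5 ng, 100 cells, 5 ng and 1 ng, each overlapping the next, to 10000 cells, which was apart from 1 ng and overlapped 500 cells, and then to 1000 cells, apart and lowest. Nr4a1 and Egr2 were highest at 10000 cells, and each group overlapped the next in order.

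Levels of different genes were compared per kilobase of exon (CPM per kb). At 10000 cells Junb stood at 253 ± 7.0 CPM per kb, rank 107 of 22391 genes with a length, followed by Fos at 103 ± 3.0, Ier2 at 95.7 ± 2.1, Jun at 70.4 ± 6.2 and Dusp1 at 48.3 ± 4.2 CPM per kb (SD, n = 3). Nr4a1 at 32.1 ± 1.7, Egr1 at 20.2 ± 2.2 and Fosb at 13.7 ± 0.58 CPM per kb came next, and Egr2 at 8.02 ± 0.35 and Egr3 at 5.47 ± 1.49 CPM per kb were lowest. At 5 ng Junb was again highest, at 118 ± 4.1 CPM per kb (rank 304), and Fosb was lowest, at 4.06 ± 0.60 CPM per kb. Jun ranked 482 at 10000 cells and 4101 at 5 ng, and Fosb ranked 3571 and 8205.

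To place the low members, 1462 olfactory and vomeronasal receptor genes served as a background level. Their median was 0.602 CPM per kb at 10000 cells and 0.0103 at 5 ng. Their 95th percentile was 1.22 CPM per kb at 10000 cells, 1.47 at 1000 cells, 1.93 at 500 cells, 2.46 at 100 cells and 0.147 at 5 ng. By group mean, all 10 members lay above it in each group except at 1000 cells. There Egr3 at 1.44 CPM per kb lay just below and the other 9 above. The low Egr3 value at 1000 cells was therefore at the level of this background. Egr2 was not above it in every library. At 100 cells it was at 1.84, 2.23 and 6.26 CPM per kb, so replicates 1 and 2 lay below and only replicate 3 above. At 500 cells it was at 5.39, 1.37 and 1.99 CPM per kb, with replicate 2 below.

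**Figure D4:**
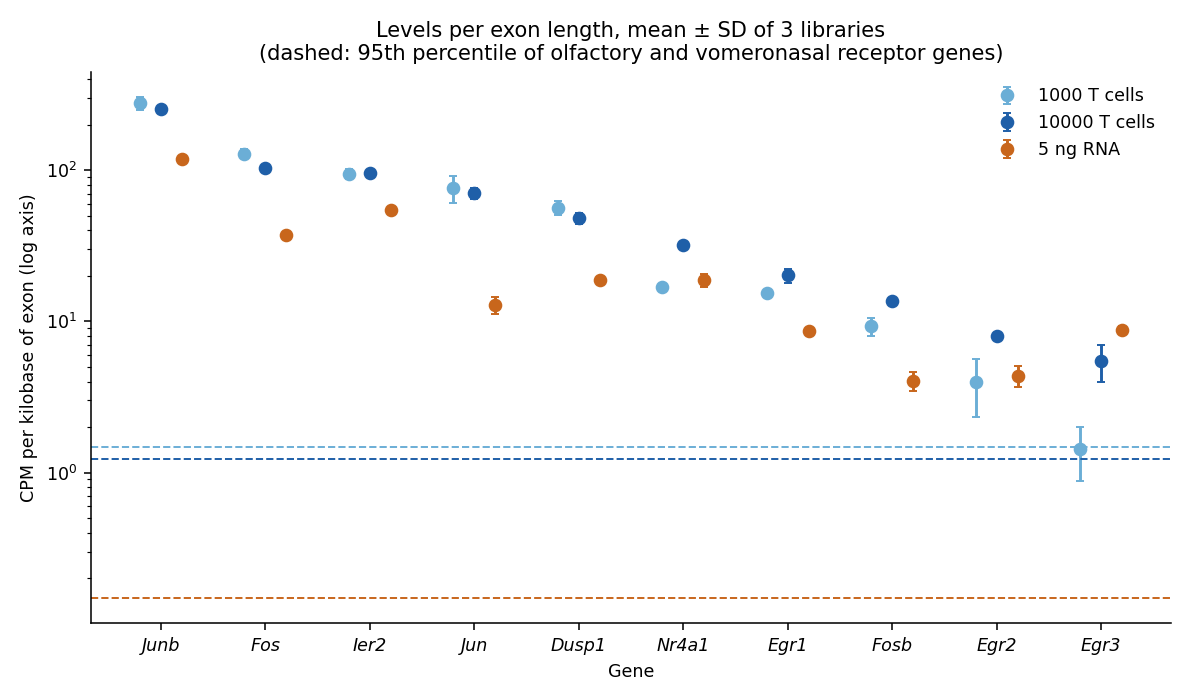
CPM per kilobase of exon (y axis, log scale) of each member, mean ± SD of 3 libraries, at 1000 cells, 10000 cells and 5 ng RNA, with dashed lines at the 95th percentile of 1462 receptor genes in the same group. Junb is highest in all 3 groups, and Egr3 at 1000 cells meets its dashed line.

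Ratios between members within a library do not depend on the library's total. Junb over Jun per kilobase ran from 3.14 to 4.98 in the 12 T cell libraries and from 5.92 to 18.2 in the 11 libraries of diluted RNA, with no overlap. Fos over Jun ran from 1.15 to 2.04 in T cells and from 1.05 to 5.04 in diluted RNA, and the low end of the latter was replicate 1 of 0.1 ng. Fos over Fosb overlapped widely, from 4.88 to 16.9 and from 5.31 to 12.3. Egr1 over Egr3 was 3.93 ± 1.34 at 10000 cells, 11.6 ± 3.6 at 1000 cells, 5.26 ± 2.90 at 500 cells and 1.07 ± 0.44 at 100 cells (SD, n = 3 each), against 0.982 ± 0.060 at 5 ng. At 1000 cells the ratio rests on Egr3 values at the background level, from 12, 13 and 23 counts. At 100 cells Egr1 over Egr3 was 1.321 and 1.315 in replicates 1 and 2 and 0.561 in replicate 3. These ratios are descriptions, chosen after the values were seen.

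**Figure D5:**
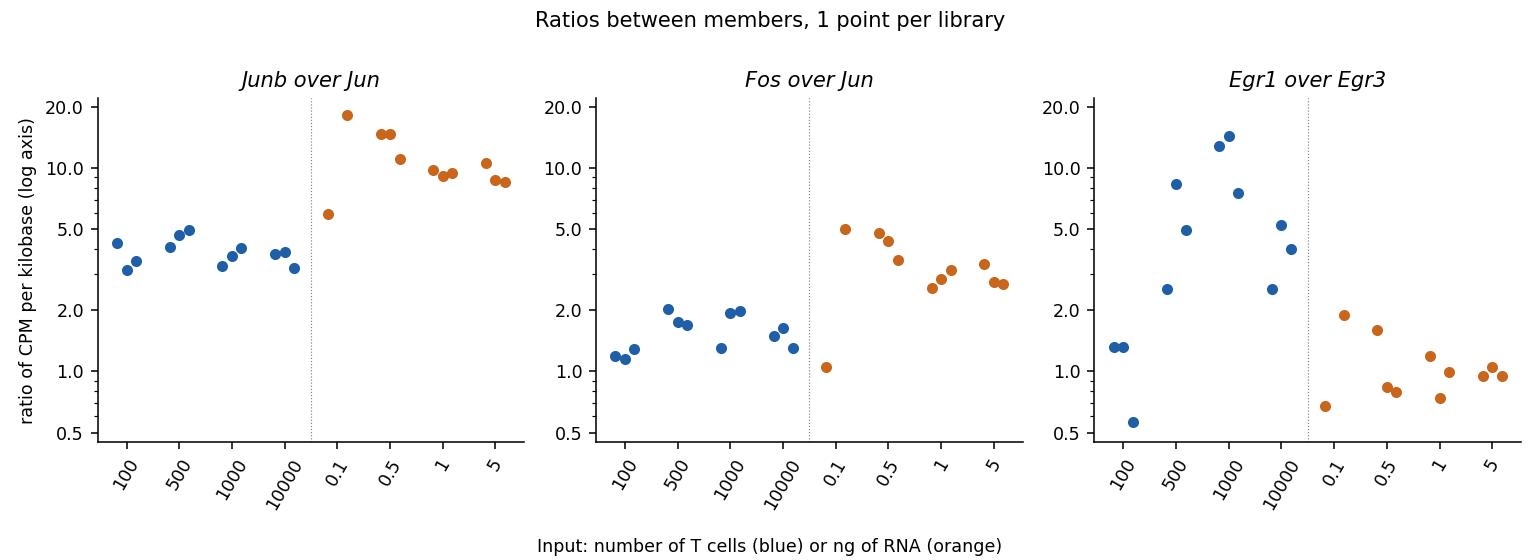
Ratio of CPM per kilobase (y axis, log scale) of Junb over Jun, Fos over Jun and Egr1 over Egr3 in each library, by T cell number (blue) and ng of diluted RNA (orange). Junb over Jun stays at or below 4.98 in T cells and at or above 5.92 in diluted RNA. Egr1 over Egr3 has its highest group mean, 11.6, at 1000 cells, where Egr3 was at the background level.

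Replicate spread of the members was lowest at 10000 cells and 5 ng. It is set beside that of all genes at 10 CPM or more, which were not matched to the members for level. The median coefficient of variation over the 10 members was 4.78% at 10000 cells, against 10.8% over the 8976 genes at 10 CPM or more. At 100 cells these values were 19.7% and 33.7%, at 500 cells 15.5% and 19.4%, and at 1000 cells 10.4% and 16.2%. In diluted RNA they were 5.41% and 7.53% at 5 ng and 16.7% and 30.1% at 0.1 ng, while the members varied more than genes in general at 1 ng (14.97% and 11.7%) and 0.5 ng (15.0% and 14.3%). Egr2 varied most among the members at 100, 500 and 1000 cells, with 71.2%, 74.2% and 41.7%. At 100 cells replicate 3 held Egr2 at 21.3 CPM, and without that library Egr2 was at 6.90 ± 0.94 CPM (SD, n = 2).

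Other genes of the pathway, taken from lists made with earlier results of these data known, did not move as one at 10000 cells against 5 ng. Of 30 further immediate early genes, 28 were tested, 12 were higher and 8 lower, with a median log2 fold change of 0.08 against 0.03 over all genes. The most abundant of those that passed were Btg1, an inhibitor of proliferation, at 0.27 (SE 0.0429), Zfp36l2 and Zfp36, which bind AU-rich mRNA and speed its decay, at 0.66 (SE 0.0573) and 0.33 (SE 0.0613), and the zinc finger factor Klf6 at 0.85 (SE 0.0682).

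These shares and those that follow stand against 28.7% of all genes higher and 27.3% lower. Upstream of the members, 3 of 11 regulators of the serum response factor, ternary complex and CREB group were higher and 1 was lower. The CREB coactivator Crebbp was higher at 0.39 (SE 0.0503), Srf itself at 0.35 (SE 0.122) and its partner Mkl1 at 0.34 (SE 0.0773), and the coactivator Ep300 was lower at -0.28 (SE 0.0583). Of 21 genes of the MAP kinase cascade, 3 were higher and 8 lower, among them the stress kinase Mapk14 at -0.25 (SE 0.0670), and the kinase Rps6ka1 was higher at 0.31 (SE 0.0637). Of 8 further MAP kinase phosphatases tested, 4 were higher and 2 lower, with Dusp10 at 1.10 (SE 0.127), Dusp2 at 0.30 (SE 0.0646), Dusp7 at 0.25 (SE 0.109) and Dusp6 at -0.70 (SE 0.138). Of 11 AP-1 and calcium-NFAT partners, 3 were higher and 5 lower, and of 8 heat shock genes tested 3 were higher and 4 lower.

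Among smaller T cell inputs, the counts stand beside 3.27% of all genes passing at 1000 cells and 3.21% at 500 cells. At 1000 against 10000 cells, Nr4a3, a nuclear receptor of the family of Nr4a1, was lower at 11.1 ± 4.7 against 26.3 ± 7.6 CPM (SD, n = 3 each), a log2 fold change of -1.21 (SE 0.326, adjusted p = 0.0302), and Klf6 was higher at 0.33 (SE 0.0844). These were the only 2 of 27 further immediate early genes tested that passed there. Crebbp and Ep300 were lower both at 1000 cells (-0.41, SE 0.0672, and -0.46, SE 0.0880) and at 500 cells (-0.31, SE 0.0713, and -0.49, SE 0.0973) than at 10000 cells. In the serum response factor, ternary complex and CREB group 3 of 11 were lower at each of these inputs, and of 8 heat shock genes tested 1 was higher and 1 lower at 1000 cells and 3 were lower at 500 cells, among them the chaperones Hspa8 at -0.18 (SE 0.0442) and Hsp90ab1 at -0.26 (SE 0.0461).

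The genes whose pattern over the 23 libraries was most like that of the members were ranked among 9289 genes by Pearson's r with the mean of the members' standardized log2(CPM + 1), as a description. The 5 highest were Chd3, Arhgap45, Slc12a7, Cd3e and Ccdc88c, with r from 0.951 to 0.965. Chd3 was at 958 ± 18.7 CPM at 10000 cells and 279 ± 10.6 CPM at 5 ng, and the T cell receptor subunit Cd3e at 428 ± 30.8 and 98.2 ± 2.5 CPM (SD, n = 3 each). Egr2 and Egr3 themselves did not follow that mean, with r of -0.18 and -0.51. The 23 libraries fall into 2 materials, so these values describe that split and are given without a test.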

How the data were processed

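Gene counts for 22488 symbols in 23 libraries were deposited as raw counts, with no normalization by the authors. Per the submitters' processing notes, HISAT2 2.1.0 and featureCounts were used with the build mm8; strand setting and counting of mates are not given in the sources used here. Between 57.9% and 70.7% of nonzero counts were even, so both mates may have been counted, and counts are not independent molecules. Groups were compared pairwise with edgeR 4.0.16 in R 4.3.3 (TMM, filterByExpr, quasi-likelihood test, Benjamini-Hochberg over all genes tested, threshold 0.05), tested first on simulated data. SE is the absolute log2 fold change over the square root of F. DESeq2 1.42.0 was an alternative, as were its size factors, library sizes alone, no filter on low counts, the replicate number as a block, 1 fit of all libraries, and leaving out each library.

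Exon lengths came from GENCODE M21 (99.6% of symbols), and members were placed by RefSeq on GRCm38.p6. Libraries of 1 group differed beyond sampling noise (chi-square per degree of freedom of 3.17 or more). The members and the gene lists were chosen with earlier results of these data known. All 10 members are named; of each further list, the called genes with the highest mean CPM are named, up to 4 at 10000 cells against 5 ng and up to 2 elsewhere, and for the likeness ranking the 5 genes of highest r with a mean of at least 10 CPM, predicted genes left out. Every marker list not printed in the report was summed the same way: at 10000 cells and 5 ng, NK cell markers were at 188 to 208 and 303 to 337 CPM, dendritic cell markers at 48.8 to 58.8 and 194 to 202 CPM, stroma and endothelium markers at 251 to 265 and 236 to 257 CPM, and platelet markers at 139 to 147 and 115 to 122 CPM. The platelet sum hides a split, as 1 of the 5 platelet markers tested was higher at 10000 cells and 4 were lower.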

Additional observations from a re-analysis of the deposited data

Results flagged for a closer look

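Egr1 was flagged because its difference between T cells and diluted RNA was not the same at the smallest and the largest inputs. At 10000 cells it was at 90.5 ± 9.9 CPM against 38.6 ± 1.7 CPM at 5 ng (SD, n = 3 each). At 100 cells it was at 46.6 ± 18.7 CPM (SD, n = 3) against 68.4 ± 6.7 CPM at 0.1 ng (SD, n = 2). The log2 fold change of T cells over RNA was lower at the small step by -1.70 (SE 0.385, adjusted p = 0.00782 by an edgeR interaction term in 1 fit of all 23 libraries, a test chosen after the data were seen). Of 18836 genes, 7.84% passed this test, and Egr1 was the 1 member among 10 that did. Leaving out each library of these groups gave -2.02 to -1.33, and without replicate 3 at 100 cells it was -1.33 (adjusted p = 0.0117). Without replicate 2 at 100 cells, Dusp1 passed as well, at -1.22 (adjusted p = 0.00804). The same test was run at the 1000-cell and 500-cell steps, where 0.0106% and 0.0425% of genes passed. No member passed there. Nr4a1 and Egr3 were at -1.05 (SE 0.266) and -1.87 (SE 0.495) at 1000 cells, and Egr2 at -2.20 (SE 0.668, adjusted p = 0.658) at 500 cells.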

How the results depend on the processing

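Of 1191 values of single members recomputed under an alternative, 1117 kept their side of the threshold, and their direction wherever a fit passed. A change of direction where neither fit passed was counted among the 1117. Of 267 counts of calls and summed levels, 192 stayed within 1.5 times (counts) or 1 SD (levels) and 75 did not. Calls of members at 10000 cells against 5 ng held under every alternative except those of Egr2 and Egr3 in the fit of all 23 libraries, and library sizes alone moved the median over all genes there from 0.03 to 0.15 (log2). The 1 reversal in which a fit passed was Jun at 0.1 against 5 ng, at -1.23 without replicate 1 of 0.1 ng and 0.66 without replicate 2. Direction also changed where neither fit passed. Dusp1 at 100 cells against 0.1 ng, for example, was at 0.38 in the main fit and at -0.03 in its lowest alternative. Causes of these changes were not tested.

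The replicate numbers do not pair libraries (77 same-numbered pairs, correlation of deviations -0.0316 to 0.0244, 0 over 0.1). Below, a number of members or genes not given for a comparison was equal to or within 1.5 times that of the main fit. With the replicate block, 1161 of 13073 genes and 4 members passed at 100 cells against 0.1 ng. It gave 2 of 14099 genes at 100 against 10000 cells. At 0.1 against 5 ng it gave 392 of 13982 genes, and at 1 against 5 ng 33 of 12616. In the fit of all 23 libraries, 18836 genes were tested in each comparison. At 10000 cells against 5 ng 4269 genes passed, and every member but Egr2 and Egr3. At 100 cells against 0.1 ng 4198 genes and 5 members passed, and at 100 against 10000 cells 836 and 3. At 500 against 10000 cells 65 and 0 passed, and at 1000 against 10000 cells 24 and 2. At 0.1 against 5 ng 2816 and 3 passed. At 0.5 against 5 ng 22 genes passed, and at 1 against 5 ng 0. DESeq2 gave 684 genes (5.08%) and 4 members at 100 cells against 0.1 ng, and 348 (3.03%) and 1 at 100 against 10000 cells. It gave 1036 (7.33%) and 2 at 500 against 10000 cells, and 784 (7.57%) and 5 at 1000 against 10000 cells. At 0.1 against 5 ng it gave 2962 (20%) and 2, and at 0.5 against 5 ng 1376 (10.4%) and 2. At 1 against 5 ng it gave 107 genes (1.03%) and 0 members. With no filter on low counts, 696 of 20653 genes and 4 members passed at 100 cells against 0.1 ng. Without that filter, 7 of 21641 genes passed at 100 against 10000 cells and 42 of 20129 at 1 against 5 ng. DESeq2 size factors in edgeR gave 3 of 13073 genes at 100 cells against 0.1 ng. At 0.1 against 5 ng they gave 1 member, as did library sizes alone. There 13982 genes were tested, and the number passing stayed within 1.5 times the 1572 of the main fit. With TMM effective library sizes, the members summed to 1745.0 CPM at 10000 cells and 757.0 CPM at 5 ng.

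Leaving out 1 library gave 7690 to 8397 genes and 10 members at 10000 cells against 5 ng, 4802 to 5279 genes and 8 members at 1000 cells against 1 ng, 4576 to 4754 genes and 8 to 10 members at 500 cells against 0.5 ng, and 0 to 545 genes and 0 to 3 members at 100 cells against 0.1 ng. It gave 0 to 357 genes and 0 to 1 members at 100 against 10000 cells, 149 to 505 genes and 0 to 1 members at 500 against 10000 cells, and 181 to 411 genes and 2 to 5 members at 1000 against 10000 cells. It gave 0 to 8075 genes and 0 to 6 members at 0.1 against 5 ng, 172 to 815 genes and 0 to 1 members at 0.5 against 5 ng, and 2 to 45 genes and 0 members at 1 against 5 ng. The members' summed CPM then ran from 1344.5 to 1579.1 at 100 cells, 1742.3 to 1782.8 at 500 cells, 1668.6 to 1770.8 at 1000 cells and 1690.7 to 1703.4 at 10000 cells. For 0.1 ng of RNA the range was 683.9 to 879.8, for 0.5 ng of RNA 712.3 to 764.2, for 1 ng of RNA 751.0 to 797.7 and for 5 ng of RNA 721.3 to 737.3. With no library left out, these comparisons tested 12558 to 14425 genes. Depth limits Egr2 and Egr3 most, with 12 to 62 counts in the libraries of 500 and 1000 cells.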
